A study of Homo sapiens with 6 samples.

Results

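The genes IER2, IER3, IER5, PHLDA1, DUSP1, ZFP36, ZFP36L1, KLF4, KLF6 and KLF10 are immediate early genes, followed here in L428, an established cell line derived from a human Hodgkin lymphoma. All probe sets that the annotation of the Affymetrix PrimeView array assigns to 1 of these 10 genes and to no other gene were taken, which gave 27 of the 49393 probe sets tested. A probe set is a group of short probes that together read a transcript, and its value is given on a log2 scale, so that a difference of 1 is a doubling. The cells were nucleofected, a form of electroporation, with 3 µg of an siRNA against BATF3 or with the same amount of a negative control siRNA, and were grown for 48 hours. There were 3 arrays for each siRNA, and the groups are called BATF3_siRNA and control_siRNA. Cells without nucleofection were not analysed here, so both groups share the handling and the presence of an siRNA. A single BATF3 siRNA was compared, in a single cell line. Nothing in the labels states that replicates were separate cultures, so the spread between arrays may be technical. The 10 genes were chosen by name with their log2 differences between these same BATF3_siRNA and control_siRNA arrays already known, so the values below are a description and not a test of the genes.

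Immediate early genes are switched on by signals such as growth factors or stress without the need for new protein synthesis. Their mRNAs are often short-lived, and many of their products damp the signal again. Among the 10 genes, IER2 encodes a small nuclear protein, IER3 a regulator of apoptosis and IER5 a coactivator of the heat shock factor HSF1. PHLDA1 encodes a pleckstrin homology-like protein, DUSP1 a nuclear phosphatase that inactivates MAP kinases, and ZFP36 and ZFP36L1 encode zinc finger proteins that bind AU-rich elements and speed the decay of mRNAs. KLF4, KLF6 and KLF10 are Krüppel-like transcription factors, which bind GC-rich DNA through zinc fingers.

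Promoters are shown first because the start regions of such genes are where growth factor and cAMP signals are read. RefSeq windows of GRCh38.p14 were used for 8 of the 10 genes, with 9 windows, since ZFP36L1 has a pair of starts. No window was used for IER3 or KLF10, so the counts of motifs in member windows leave both genes out. The 250 bases before the start are printed for the 4 genes whose window holds a cAMP response element or an ETS core and whose groups lay apart on at least 1 probe set, a choice made after the values were seen. The IER2 window also holds an ETS core, and its groups overlapped. Capitals mark the cAMP response element TGACGTCA and the ETS factor core CCGGAA, searched on both strands, so that TTCCGG is the core on the other strand. The DUSP1 window is chr5:172771196-172771445 on the minus strand, and the ZFP36L1 window, at the downstream start, is chr14:68793417-68793666 on the minus strand. The PHLDA1 window is chr12:76031777-76032026 on the minus strand, and the IER5 window is chr1:181088450-181088699 on the plus strand. All 4 read 5′ to 3′ along the gene.
DUSP1: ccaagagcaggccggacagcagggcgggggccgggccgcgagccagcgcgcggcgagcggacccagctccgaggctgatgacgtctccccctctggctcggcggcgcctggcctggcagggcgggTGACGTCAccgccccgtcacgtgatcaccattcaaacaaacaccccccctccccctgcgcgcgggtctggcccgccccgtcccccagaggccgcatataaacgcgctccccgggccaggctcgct
ZFP36L1: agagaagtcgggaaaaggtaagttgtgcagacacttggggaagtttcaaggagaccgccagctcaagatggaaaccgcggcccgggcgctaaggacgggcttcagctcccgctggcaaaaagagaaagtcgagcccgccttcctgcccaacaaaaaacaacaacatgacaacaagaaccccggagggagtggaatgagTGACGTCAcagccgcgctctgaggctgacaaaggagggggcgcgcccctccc
PHLDA1: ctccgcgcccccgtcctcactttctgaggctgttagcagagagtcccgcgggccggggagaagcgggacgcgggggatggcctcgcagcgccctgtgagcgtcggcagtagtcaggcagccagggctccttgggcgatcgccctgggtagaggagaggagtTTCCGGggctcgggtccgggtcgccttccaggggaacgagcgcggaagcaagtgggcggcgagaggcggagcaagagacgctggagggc
IER5: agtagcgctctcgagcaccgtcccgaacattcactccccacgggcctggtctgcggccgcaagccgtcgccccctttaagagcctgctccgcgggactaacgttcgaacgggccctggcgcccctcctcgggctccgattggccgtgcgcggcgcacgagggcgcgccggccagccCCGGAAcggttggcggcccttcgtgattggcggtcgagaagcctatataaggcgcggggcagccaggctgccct

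The cAMP response element lay 125 to 118 bases before the DUSP1 start and 52 to 45 bases before the ZFP36L1 start. It was in no other of the 9 member windows used. Of all 35116 windows of the same length, 1.65% held it. The ETS core was in the windows of IER2, IER5 and PHLDA1, and in 14.5% of all windows. TGANTCA, the AP-1 site to which BATF3 binds with JUN proteins, was in 0 of the 9 member windows and in 6.57% of all windows. The CArG box, the site of serum response factor, was also in 0 of the 9 and in 1.16% of all windows. The GC box GGGCGG was in 6 of the 9 and in 42.6% of all windows. The member windows held 56.4% to 76.4% G and C, beside a median of 58.0% over all windows. The shares of the motifs were not adjusted for that content. None of the 5 motifs overlapped the marked cAMP response elements or ETS cores in the printed windows. These matches describe the letters of a 250-base window and do not show binding.

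BATF3 itself was lower in every BATF3_siRNA array, with a log2 difference of −1.20 (SE 0.095) and a ratio to control of 0.436. Of the 10 Hodgkin line markers CCL22 alone lay under the highest array background on all 6 arrays, and TNFRSF8, which encodes CD30, averaged 10.75 in the controls. Of 7 B cell markers 4 lay under that background on all 6 arrays, as did 7 of 7 T and NK cell markers, 5 of 6 myeloid markers and 8 of 8 fibroblast and epithelial markers. The mean level over the myeloid markers ran from 4.19 to 4.34 after BATF3 siRNA and from 4.07 to 4.17 after control siRNA, and CD68, the 1 myeloid marker above background, was 0.47 higher (SE 0.16). Over the T and NK cell markers the mean level ran from 4.27 to 4.33 and from 4.19 to 4.33. The part of such markers in the results was not tested. The array's background probe sets richest in G and C (20 to 25 such bases) read 5.92 and 5.98 in BATF3_siRNA replicates 2 and 3 and 6.46 to 6.49 on the other 4 arrays, so values without those replicates are given too.

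Of the 27 probe sets, 24 were higher on average after BATF3 siRNA and 3 were lower. The differences ran from −0.068 to 0.53 with a median of 0.18, beside a median of −0.0036 over all 49393 probe sets, of which 48.9% were higher. In limma, with Benjamini-Hochberg adjustment over all probe sets, 0 of the 27 passed an adjusted p under 0.05 and 8 had an unadjusted p under 0.05. Over all probe sets 0.0101% and 7.16% did so. The 3 BATF3_siRNA arrays all lay above the 3 control_siRNA arrays for 8 of the 27, against 6.38% of all probe sets, and for 0 of the 27 they all lay below, against 5.86%. The choice of the genes used this contrast, so nothing is read from these counts. The values come from bulk RNA, in which more cells with a transcript and more transcript per cell cannot be told apart.

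**Figure D1:**
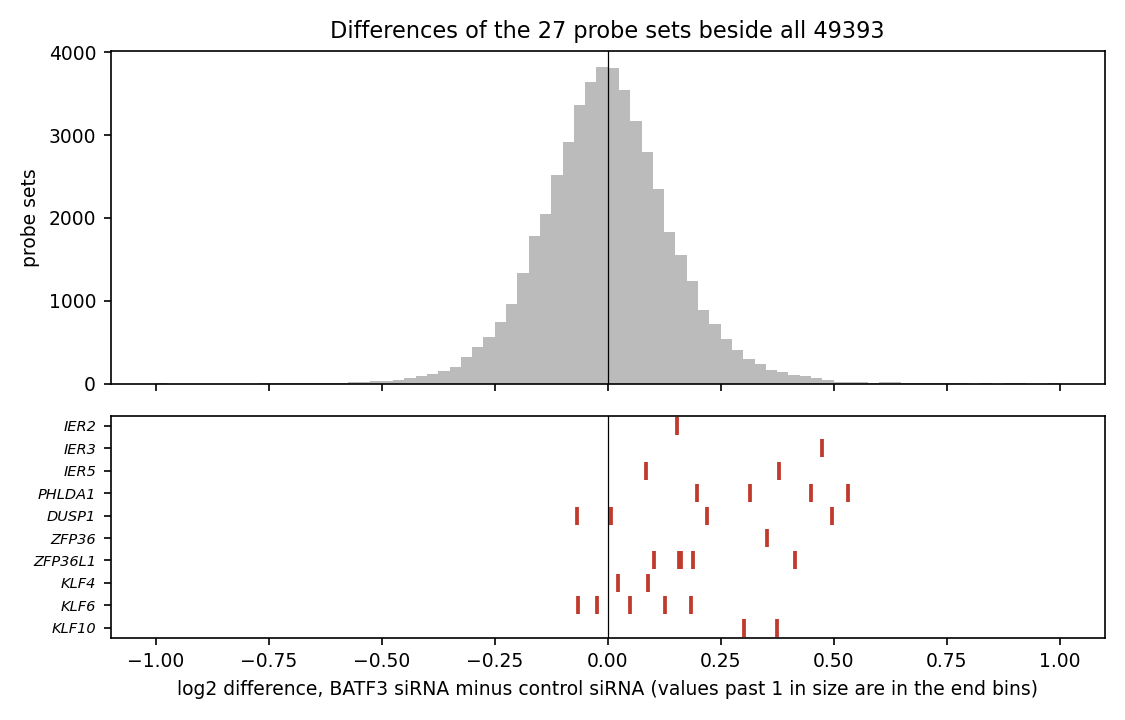
The upper panel counts all 49393 probe sets by their log2 difference, BATF3 siRNA minus control siRNA, and the lower panel marks each of the 27 probe sets in the row of its gene. The marks run from −0.068 to 0.53, and 24 of 27 lie to the right of 0.

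PHLDA1 was higher on all 4 of its probe sets. Its probe set 11721305_a_at read 8.84, 8.70 and 8.76 after BATF3 siRNA and 8.18, 8.25 and 8.27 after control siRNA, for replicates 1, 2 and 3. The groups did not overlap, and the lowest BATF3_siRNA array lay 0.43 above the highest control. The difference was 0.53 (SE 0.089; 8.77 ± 0.068 against 8.23 ± 0.050, SD, n = 3 each), a ratio of 1.45. The other three probe sets of PHLDA1 were higher by 0.45 (SE 0.12), 0.31 (SE 0.11) and 0.20 (SE 0.097). On 11721307_at, at 0.45, control_siRNA replicate 2 read below the highest background value of its array. In all 4 the groups were apart, though for 11721306_at by only 0.0082. BATF3_siRNA replicate 2 was the lowest of its group in each of the 4.

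IER3 had 1 probe set, 11720062_s_at. It read 11.53, 11.20 and 11.45 after BATF3 siRNA and 11.01, 10.79 and 10.96 after control siRNA. The groups did not overlap, and replicate 2 was the lowest in both. The difference was 0.47 (SE 0.11; 11.40 ± 0.17 against 10.92 ± 0.11, SD, n = 3 each), a ratio of 1.39. Against the 3 controls, BATF3_siRNA replicate 1, which shared their background, was higher by 0.61, and replicates 2 and 3 were higher by 0.28 and 0.53.

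IER5 gave unlike answers from its probe sets. Its 11716629_at read 8.61, 8.60 and 8.55 after BATF3 siRNA and 8.14, 8.12 and 8.35 after control siRNA, so the treated arrays lay close together and above every control. The difference was 0.38 (SE 0.097; 8.58 ± 0.029 against 8.21 ± 0.13, SD, n = 3 each), a ratio of 1.30. The other IER5 probe set, 11753362_a_at, read 7.42, 7.47 and 7.52 against 7.43, 7.46 and 7.26. Those groups overlapped, and the difference was 0.086 (SE 0.095).

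IER2 was read by 1 probe set, at 8.88, 8.72 and 8.75 after BATF3 siRNA and at 8.47, 8.75 and 8.67 after control siRNA. The groups overlapped, since control_siRNA replicate 2 lay above BATF3_siRNA replicates 2 and 3. The difference was 0.15 (SE 0.10; 8.78 ± 0.085 against 8.63 ± 0.14, SD, n = 3 each). It was 0.073 without control_siRNA replicate 1, the lowest control.

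**Figure D2:**
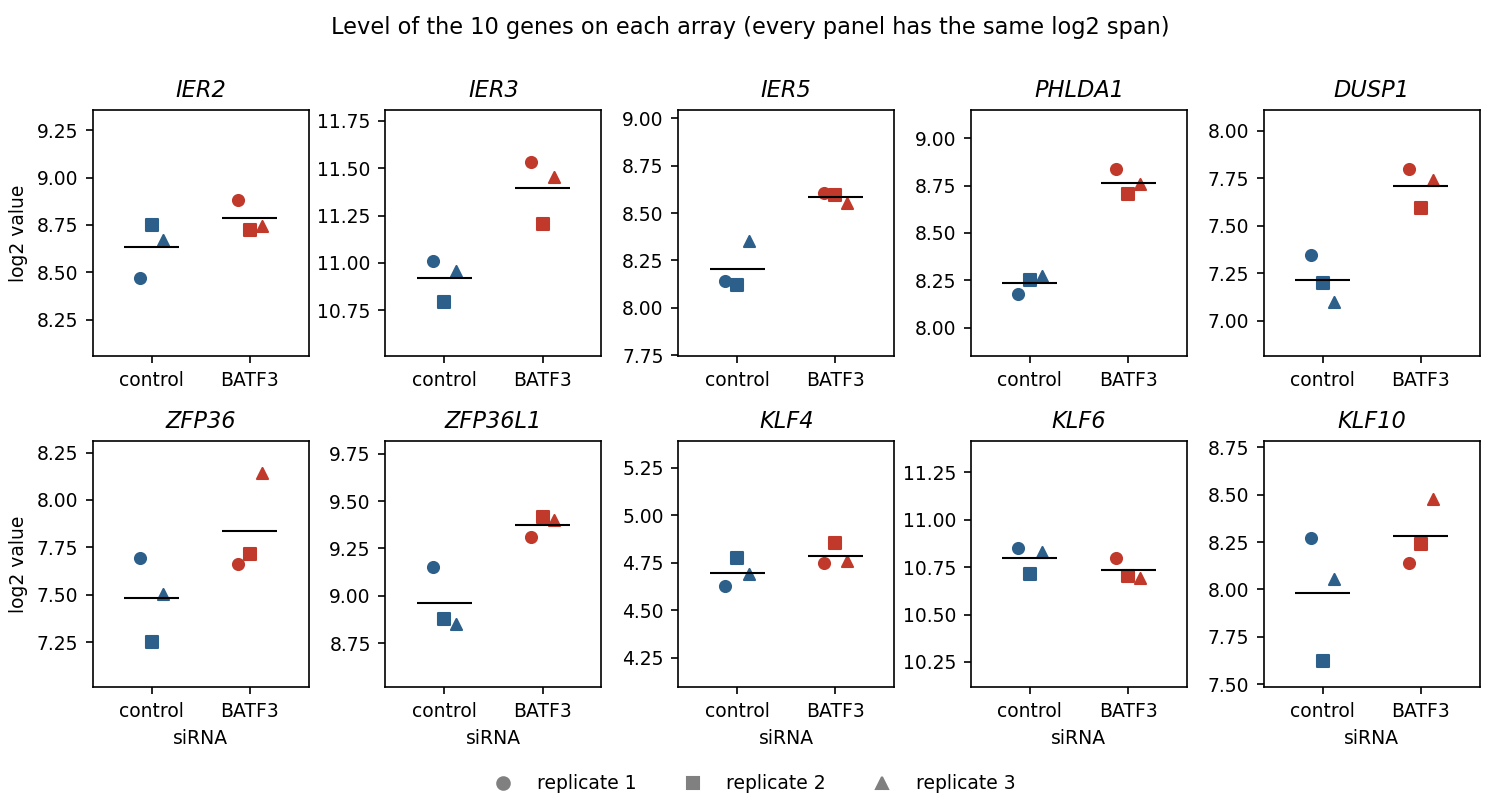
Each panel shows 1 gene, read by its probe set with the highest mean, with the log2 value of each array on the vertical axis, the siRNA on the horizontal axis, the replicate number as the symbol and the group mean as a line. The groups are apart for IER3, IER5, PHLDA1, DUSP1 and ZFP36L1, and they overlap for the other five genes.

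DUSP1, which feeds back on the MAP kinases, was read by 4 probe sets that did not move alike. On 11715766_a_at the values were 7.80, 7.59 and 7.74 after BATF3 siRNA and 7.35, 7.20 and 7.10 after control siRNA. The groups were apart by 0.24, and the difference was 0.50 (SE 0.10; 7.71 ± 0.11 against 7.21 ± 0.13, SD, n = 3 each), a ratio of 1.41. Control_siRNA replicate 3 read below the highest background value of its array, which leaves the size of that ratio uncertain. On 11752993_a_at the values were 7.60, 7.12 and 7.56 against 7.18, 7.30 and 7.14, where BATF3_siRNA replicate 2 lay below all 3 controls and replicates 1 and 3 above them (difference 0.22, SE 0.13). There control_siRNA replicates 1 and 3 read below the highest background values of their arrays. The remaining DUSP1 probe sets differed by 0.0079 (SE 0.12) and −0.068 (SE 0.091), and the last of these lay under the highest background on all 6 arrays. The mean over the 4 probe sets differed by 0.16. The printed DUSP1 window holds the cAMP response element.

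ZFP36, also called tristetraprolin, was read by 1 probe set. It stood at 7.66, 7.71 and 8.14 after BATF3 siRNA and at 7.70, 7.25 and 7.51 after control siRNA. The groups overlapped, because control_siRNA replicate 1 lay above BATF3_siRNA replicate 1, and replicate 3 of the treated group stood above the rest. The difference was 0.35 (SE 0.15; 7.84 ± 0.26 against 7.48 ± 0.22, SD, n = 3 each). It was 0.20 without BATF3_siRNA replicate 3, and 0.18 for BATF3_siRNA replicate 1 alone against the controls.

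Its relative ZFP36L1 was read by 5 probe sets, and all 5 were higher on average. On 11758557_s_at the values were 9.31, 9.42 and 9.40 after BATF3 siRNA and 9.15, 8.88 and 8.85 after control siRNA. These groups were apart by 0.16, and the difference was 0.41 (SE 0.11; 9.37 ± 0.057 against 8.96 ± 0.17, SD, n = 3 each), a ratio of 1.33. The other four ZFP36L1 probe sets differed by 0.10 to 0.19, and each had overlapping groups. They also ordered the arrays in another way. On 11746561_a_at control_siRNA replicate 2 read 8.57, above BATF3_siRNA replicate 2 at 8.31, whereas on 11758557_s_at it read 8.88, below all treated arrays. ZFP36L2, the third family member measured, read 11.12 against 11.29 and was lower on all 3 treated arrays (difference −0.18, SE 0.085), with an adjusted p of 0.730 in limma over all genes. It is named outside the rule for named genes, after its values were seen.

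The groups overlapped for every probe set of the Krüppel-like factors. KLF10, which is induced by TGF-beta, was read by 2 probe sets. On 11733068_s_at it stood at 8.14, 8.24 and 8.48 after BATF3 siRNA and at 8.27, 7.62 and 8.06 after control siRNA. The groups overlapped, since control_siRNA replicate 1 lay above 2 treated arrays, and control_siRNA replicate 2 stood well below the rest. The difference was 0.30 (SE 0.16; 8.28 ± 0.17 against 7.98 ± 0.33, SD, n = 3 each), and it was 0.12 without control_siRNA replicate 2. The second KLF10 probe set had the same order of arrays within the controls and differed by 0.37 (SE 0.18). Its control_siRNA replicate 2 read 6.68, below the highest background value of that array (7.11), and without that array the difference was 0.17.

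KLF6, the Krüppel-like factor with most probe sets, had differences on both sides of 0. On 11716093_a_at it read 10.80, 10.71 and 10.69 after BATF3 siRNA and 10.85, 10.71 and 10.83 after control siRNA. The groups overlapped, with a difference of −0.066 (SE 0.091; 10.73 ± 0.057 against 10.80 ± 0.076, SD, n = 3 each). The other KLF6 probe sets differed by −0.024, 0.050, 0.13 and 0.18, all with overlapping groups. That at 0.18 lay under the highest array background on all 6 arrays, and that at 0.13 on 4 of them. KLF4, a factor known for its part in reprogramming to pluripotency, lay under the highest array background on all 6 arrays in both of its probe sets. Its values ran from 4.63 to 4.86 on 11719633_a_at and from 2.97 to 3.10 on 11719634_a_at, with differences of 0.090 (SE 0.091) and 0.022 (SE 0.090). At these levels a difference in KLF4 was not detectable.

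**Figure D3:**
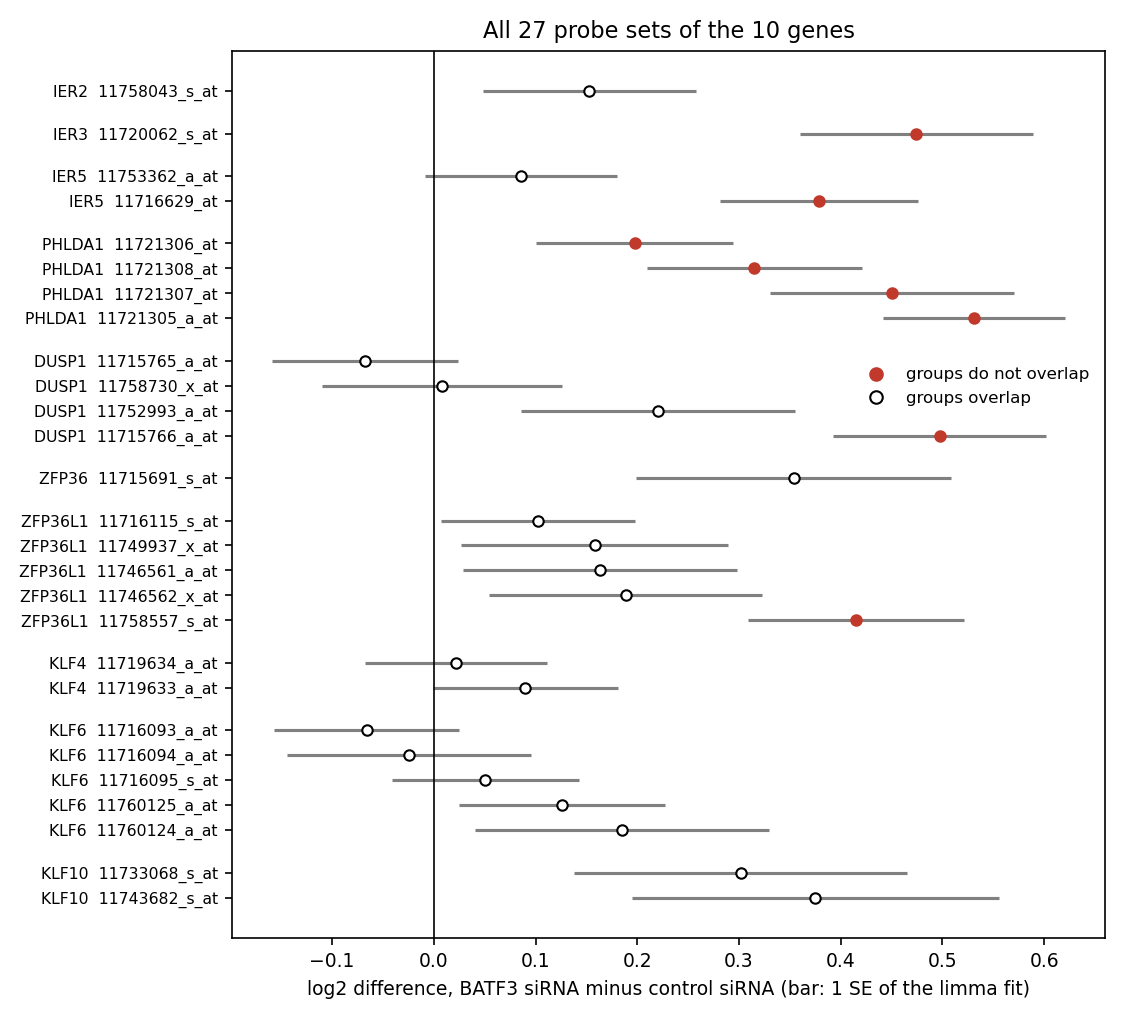
Each point is 1 of the 27 probe sets, with its log2 difference, BATF3 siRNA minus control siRNA, on the horizontal axis and 1 SE of the limma fit as the bar. Filled points, where the 3 treated arrays lie above the 3 controls, are all 4 probe sets of PHLDA1 and 1 each of IER3, IER5, DUSP1 and ZFP36L1.

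With 1 probe set for each gene, that with the highest mean, 9 of the 10 genes were higher, against 49.0% of all genes, and the median difference was 0.37, beside −0.0027 over 18244 genes. With the mean of all probe sets of a gene in place of 1, all 10 were higher, KLF6 among them at 0.054, and the median was 0.22. The groups were apart for 5 of the 10 genes, against 6.36% of all genes, with the treated arrays above in each (0 of the 10 had them below, against 5.78%). In limma 0 of the 10 passed an adjusted p under 0.05 over all genes, against 0.0164% of all genes. With an unadjusted p under 0.05 there were 6 of the 10, against 7.15% of all genes. The median of the 10 genes relative to the control mean was 0.30, 0.27 and 0.47 on BATF3_siRNA replicates 1, 2 and 3. On the controls it was 0.073, −0.084 and 0.035. In this median all 3 treated arrays lay above all 3 controls, and nothing is read from that order, because the choice of the genes used this contrast. BATF3_siRNA replicate 1, with the background of the controls, lay between replicates 2 and 3. Over all 27 probe sets the medians were 0.26, 0.090 and 0.24 on BATF3_siRNA replicates 1, 2 and 3, so there replicate 1 was the highest and replicate 2 the lowest of the treated arrays. Within that background, replicate 1 against the controls, the differences were 0.61 for IER3, 0.60 for PHLDA1, 0.59 for DUSP1, 0.40 for IER5 and 0.35 for ZFP36L1. They were 0.25 for IER2, 0.18 for ZFP36, 0.16 for KLF10, 0.052 for KLF4 and −0.00031 for KLF6.

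**Figure D4:**
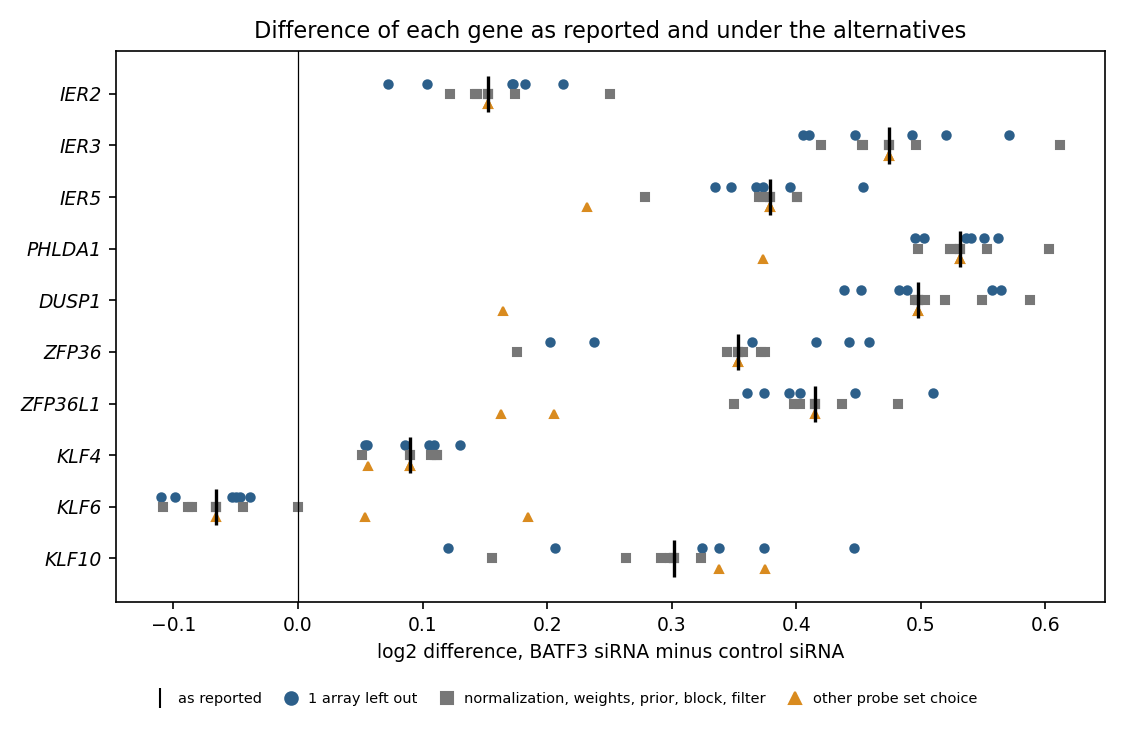
For each gene the black bar is the log2 difference as reported, and the points are the differences with 1 array left out, with other normalization, weights, priors, blocks or filters, and with other choices of probe set. The sign changes for KLF6 alone, and the choice of probe set moves DUSP1 most, from 0.50 to 0.16.

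The rest of the immediate early response was followed in lists fixed with earlier results of these data known. Among 19 measured immediate early transcription factors, 0 passed in limma in either direction over all genes. On average 14 were higher, against 49.0% of all genes, and the median difference was 0.11. Under the highest background on all 6 arrays lay 11 of the 19. With an unadjusted p under 0.05, 5 of the 19 were higher and 0 lower, against 7.15% of all genes in either direction. Those furthest from 0 were EGR1 at 2.05 (SE 0.33), CSRNP1 at 0.48 (SE 0.12) and ATF3 at 0.41 (SE 0.094). CSRNP1 read below the highest background value of the array on every control, which leaves the size of its difference uncertain. Among 21 other immediate early genes 0 passed, 16 were higher and the median was 0.11, with 8 of the 21 under the highest background on all 6 arrays. Of these SGK1, a kinase induced by serum and glucocorticoids, differed by 0.34 (SE 0.11), the cell cycle regulator SERTAD1 by 0.30 (SE 0.14) and RHOB, a small GTPase, by 0.26 (SE 0.12). SGK1, SERTAD1 and RHOB read below the highest background on 2, 4 and 3 of the 6 arrays. With an unadjusted p under 0.05, 2 of the 21 were higher and 1 lower.

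Relatives of the 10 genes, 25 in all, had a median of 0.080, with 15 higher and 0 passing in limma. At an unadjusted p under 0.05 there were 3 higher and 2 lower, against 7.15% of all genes in either direction. The phosphatases DUSP2 and DUSP16 differed by 0.37 (SE 0.10) and 0.33 (SE 0.096), and DUSP7 by −0.29 (SE 0.14). Every DUSP2 control read below the highest background value of its array. The kinases that DUSP1 acts on and those above them had a median of 0.052 over 10 genes, with 0 passing in limma and 0 at an unadjusted p under 0.05. Of these MAP2K1 differed by 0.19 (SE 0.12), MAP2K4 by 0.19 (SE 0.091) and MAP2K2 by −0.18 (SE 0.096). Regulators that act on immediate early promoters, such as SRF, ELK and CREB factors, had a median of 0.010 over 16 genes, again with 0 passing and 0 at an unadjusted p under 0.05. MRTFB differed by −0.17 (SE 0.10), CREM by 0.14 (SE 0.11) and CREBBP by 0.12 (SE 0.13).

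Genes downstream of the members were set beside them. Of 18 measured mRNAs with AU-rich elements bound by ZFP36 proteins, a list that includes IER3 and ZFP36 themselves, 13 were higher, 0 passed in limma, and the median was 0.14. At an unadjusted p under 0.05 there were 6 higher and 0 lower, against 7.15% of all genes in either direction. IER3 and ZFP36 are among those 6 and were chosen with this contrast known, so nothing is read from the count. Of the 18, 11 lay under the highest background on all 6 arrays. TNF, an inflammatory cytokine, differed by 0.41 (SE 0.10). The decay machinery that ZFP36 proteins recruit had a median of 0.019 over 16 genes, with 0 passing in limma and 0 at an unadjusted p under 0.05. There CNOT8 differed by 0.24 (SE 0.15), CNOT3 by −0.24 (SE 0.13) and EXOSC4 by −0.17 (SE 0.14). Heat shock genes linked to HSF1 had a median of −0.00099 over 11 genes, 0 of which passed or had an unadjusted p under 0.05, and HSF1 itself differed by −0.15 (SE 0.13), HSP90AA1 by 0.13 (SE 0.098) and HSPH1 by 0.11 (SE 0.10). TGF-beta response genes linked to KLF10 had a median of −0.0058 over 10 genes, with 0 passing in limma and 1 lower at an unadjusted p under 0.05. SKIL, a repressor of SMAD signalling, was at −0.23 (SE 0.091), TGFBR2 at 0.25 (SE 0.12) and SMAD4 at −0.13 (SE 0.14).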

How the data were processed

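Total RNA of L428 cells was labelled with biotin and hybridised to Affymetrix PrimeView arrays, per the labels' protocols. The deposited values are log2 values, 1 per probe set and array. Their base was inferred from their range. Per the submitters' processing notes the affy package was used, without a version. The steps of background correction, normalization and summarization were not given in the sources used here. Values were used as deposited, for 49393 probe sets without the 102 controls. Array medians lay between 6.24 and 6.32. A common scale would hide a shift of most transcripts. Symbols come from the platform annotation, and all 10 member identifiers matched RefSeq symbols.

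Differences are from limma 3.58.1 in R 4.3.3 (lmFit, eBayes, two-sided), BATF3 siRNA minus control siRNA over 6 arrays, called at an adjusted p under 0.05 over all probe sets or over 18244 genes, each read by its probe set with the highest mean. The median SE was 0.11, and the number of arrays limits the precision. The fit was tested on simulated data. The members and lists were chosen with earlier results of these data known. All members are named, and from each list the 3 largest differences among genes at or above the median level. TNF is named alone in its list because the others are members.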

Additional observations from a re-analysis of the deposited data

How the results depend on the processing

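The count of called features depended on the setting, and the direction of 9 of the 10 genes did not over the alternatives run. Much of that was fixed in advance. The dim filter, the intensity trend and robust prior, and the replicate block leave the difference of a gene as it is. For the 5 genes whose groups were apart, leaving out 1 array cannot change the sign. Of all probe sets limma called 5, but 11 without dim features, 67 with array weights and 9 with an intensity trend and robust prior. Of all genes it called 3, but 9, 25 and 12 under the same 3 settings, 5 for the most variable probe set and 6 at an adjusted p under 0.1. With array background as a block, the low block held BATF3_siRNA replicates 2 and 3 alone, so the contrast rested on replicate 1 against the controls. The median of the 10 genes was then 0.30, and no count called is given for 1 treated array. Leaving out 1 array gave 0 to 2 called probe sets (2303 to 5426 at an unadjusted p under 0.05) and 0 to 2 genes (852 to 1929 at an unadjusted p under 0.05). PHLDA1 passed among genes with array weights (limma adjusted p = 0.0438) and without dim genes (0.0448), within a range of 0.0438 to 0.827 over its alternatives, and no other member passed in any.

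The median difference of the 10 genes, 0.37, was 0.22 for the mean of the probe sets of a gene and 0.27 for the 6 genes with probe sets that do not end in _s_at or _x_at. It ran from 0.29 to 0.45 with 1 array left out. KLF6 turned from −0.066 to 0.054 for the mean of its probe sets and to 0.18 for its most variable one. That most variable KLF6 probe set lay under the highest background on all 6 arrays. With the replicate number as a block the counts were again 5 probe sets and 3 genes, the median of the 10 genes was 0.37, and 0 members were called. Deviations of same-numbered arrays correlated at 0.029, 0.15 and −0.025 over genes, so the numbers were not taken as pairs. The cause of these differences was not tested. Both KLF4 probe sets, and 1 probe set each of DUSP1 and KLF6, lay under the highest background on all 6 arrays, which limits what they can show.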

Other observations

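Genes outside the 10 whose values over the 6 arrays were most like the mean standardised profile of the 10 were SLC1A4, an exchanger of neutral amino acids, CLEC2B, a lectin-like ligand, HACD4, an enzyme of fatty acid elongation, MTM1, a phosphoinositide phosphatase, and ASAP1, an activator of ARF GTPases. Their Pearson correlations were 0.994, 0.990, 0.988, 0.987 and 0.987, the highest among 9113 genes, of which 174 exceeded 0.9. They are given as a measure of likeness alone, since the arrays fall into the siRNA groups and the profile holds that difference. SLC1A4 read 10.97, 10.87 and 10.98 after BATF3 siRNA and 10.67, 10.59 and 10.68 after control siRNA, with replicate 2 lowest in both groups.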
